A study of Mus musculus with 12 samples.

Results

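The lysosome and autophagy genes described here are 43 mouse genes listed by symbol: acid hydrolases, lysosomal membrane and transport proteins, subunits of the vacuolar proton pump, the transcription factors Tfeb and Tfe3, and proteins of the autophagosome. Of these, 41 had a row in all 3 deposited expression tables, in which 11591 genes were shared. Ctsc, a cathepsin that trims dipeptides, had no row in any table, and Hexa, a subunit of beta-hexosaminidase, had a row only in the shMYC table, at 0.45 log2 CPM (1.37 CPM). CPM are the reads of a gene scaled to the size of its library.

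The 12 libraries came from KPC cells, a murine pancreatic ductal adenocarcinoma line derived from a tumour of the KPC mouse model. Every culture carried a doxycycline-inducible shRNA and received doxycycline (1 µg/ml by the labels) for 48 h, with 3 libraries for each of 4 shRNAs: shLuciferase as the control, shCTR9 and shCDC73 against subunits of the PAF1 complex, and shMYC. The PAF1 complex (PAF1c) travels with RNA polymerase II during elongation, and the series asked how its depletion compares with depletion of MYC. All come from a single tumour line transduced with lentivirus, and the study describes its RNA-seq libraries as biological replicates.

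Each table holds the authors' mean per gene, pooled over 6 libraries, 3 of the depletion named and 3 of shLuciferase, so no value below has a replicate spread and no difference was tested. The labels list 3 shLuciferase libraries in all. If these entered every table, the controls are common to the tables, and a difference between tables comes from the depleted libraries and is smaller than the difference between the depleted cells themselves. The study presents the MYC depletion as earlier work, and whether its libraries were prepared together with the others is not given in the sources used here. A difference from the shMYC table therefore cannot be told apart from such a difference in preparation. The tables were also normalized separately.

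Lysosomes are acidic compartments in which hydrolases degrade proteins, lipids, glycans and nucleic acids, and they receive cargo from endocytosis and from autophagosomes. A proton pump, the V-ATPase, keeps the lumen acidic, while membrane proteins protect the limiting membrane and export the products. TFEB and TFE3 are held in the cytoplasm when nutrients are plentiful and enter the nucleus upon starvation, where they bind a motif with the core CACGTG near the start of many lysosomal genes. MYC, as a dimer with MAX, binds the same core, called the E-box. In pancreatic carcinoma, autophagy and lysosomal degradation are known for supplying nutrients and for the turnover of MHC class I molecules.

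The mean of each targeted gene was lowest in the table of its own shRNA. It was 16.5 CPM for Ctr9 in the shCTR9 table (41.7 in shCDC73, 25.0 in shMYC), 21.9 CPM for Cdc73 in the shCDC73 table (41.2 and 37.3 in shCTR9 and shMYC) and 118 CPM for Myc in the shMYC table (155 and 178). Of 6 epithelial markers 4 had a row, with Krt8 between 2779 and 3929 CPM and a summed level between 6636 and 9122 CPM, and Epcam and Cldn4 had none. Among markers of other cell types, 1 of 8 for leukocytes (Cd14, 103 to 157 CPM), 1 of 6 for fibroblasts (Pdgfra, at most 1.81 CPM), 1 of 4 for pancreatic acinar cells (Cela1, 3.66 to 6.90 CPM) and 0 of 4 for endothelium had a row, and Ptprc, Csf1r and Col1a1 were among those with none.

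Promoter windows from RefSeq on GRCm38.p6, from 250 bases before to 50 bases after the annotated start, were at hand for 34 of the 41 genes (40 windows). The 6-base E-box CACGTG lay in 14 of the 40 windows (35.0%), against 10.2% of 11226 windows of all genes in the 3 tables and 7.15% of all 32851 windows. The 8-base motif TCACGTGA, which contains the E-box and is a form of the CLEAR element bound by TFEB, lay in 8 windows (20%), against 1.99% and 0.974%. Both motifs read the same on both strands. The members were listed as lysosomal genes, the class in which this element is known, so its frequency among them is a description.

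The 10 matches to the 8-base motif lie in 8 genes and are shown because these members have the motif in common. Each is given 5′ to 3′ on the strand of the gene with its motif in capitals.
Ctsa (chr2:164833749-164833778, plus strand): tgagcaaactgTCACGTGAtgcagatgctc
Ctsa (chr2:164833766-164833795, plus strand): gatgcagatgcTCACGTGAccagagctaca
Ctsd (chr7:142387908-142387937, minus strand): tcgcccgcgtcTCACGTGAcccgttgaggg
Gla (chrX:134601215-134601244, minus strand): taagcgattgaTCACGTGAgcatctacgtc
Gla (chrX:134601182-134601211, minus strand): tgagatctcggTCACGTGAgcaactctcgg
Cln3 (chr7:126583340-126583369, minus strand): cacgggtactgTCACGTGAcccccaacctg
Mcoln1 (chr8:3500462-3500491, plus strand): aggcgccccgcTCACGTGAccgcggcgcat
Atp6v0d1 (chr8:105566050-105566079, minus strand): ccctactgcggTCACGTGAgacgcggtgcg
Atp6v0e (chr17:26676387-26676416, plus strand): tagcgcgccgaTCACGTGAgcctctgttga
Atp6v1a (chr16:44139373-44139402, minus strand): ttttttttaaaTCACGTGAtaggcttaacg

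The motif straddles the start itself in Atp6v0d1, whose motif centre is 0 bases from it, and lies within 9 bases of it in Ctsa and Atp6v0e. Ctsa and Cln3 each also had a window at another annotated start, in which neither motif was found. Gla carried a pair of copies at −224 and −191 bases, and Atp6v1a a single copy at −128. Lamp1 had no 8-base match but 4 E-boxes, centred −58, −42, −25 and −12 bases from the start. A single E-box and no 8-base match was found in Ctsl, Gaa, Glb1, Naglu and Sgsh. The sites of Naglu and Sgsh are shown with the E-box in capitals, chosen because these genes differed by more than 2 times between tables, which Ctsl, Gaa and Glb1 did not.
Naglu (chr11:101070009-101070038, plus strand): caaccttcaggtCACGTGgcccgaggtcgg
Sgsh (chr11:119355522-119355551, minus strand): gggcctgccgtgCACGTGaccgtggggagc

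Wipi1, which encodes a protein that binds phosphoinositides on forming autophagosomes, differed most between the tables. Its window is shown whole in lower case, since neither motif was found in it.
Wipi1 (chr11:109611340-109611639, minus strand): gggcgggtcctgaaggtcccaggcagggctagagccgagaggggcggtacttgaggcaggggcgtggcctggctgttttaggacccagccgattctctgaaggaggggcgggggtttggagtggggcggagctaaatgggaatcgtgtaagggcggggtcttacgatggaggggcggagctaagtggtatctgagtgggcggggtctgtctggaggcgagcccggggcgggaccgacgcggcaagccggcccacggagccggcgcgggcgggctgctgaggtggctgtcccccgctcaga

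**Figure D1:**
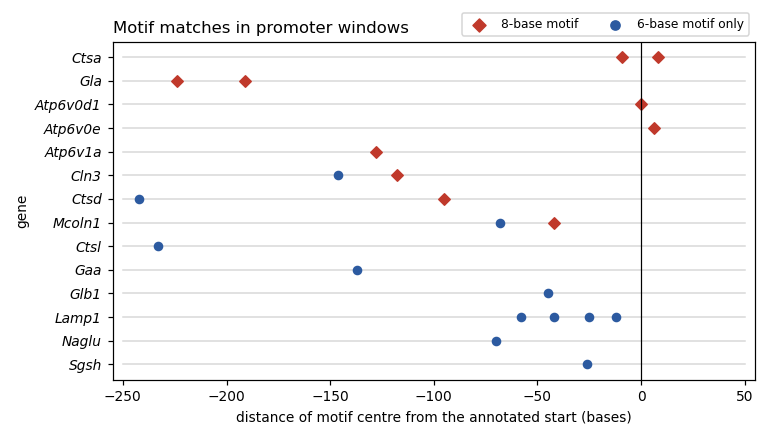
Position of the motif centre relative to the annotated start (x axis, bases) in the promoter windows of the 14 genes with a match. Diamonds mark the 8-base motif and circles an E-box outside it, and each grey line spans the window from 250 bases before to 50 after the start. Matches lie from −242 bases in Ctsd to 8 bases in Ctsa.

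Differences between the tables were also read by motif. The median difference between the shCTR9 and shMYC tables, on the log2 scale, was −0.27 for the 8 genes with the 8-base motif, −0.36 for the 14 with an E-box and −0.27 for the 20 whose windows had none. Between the shCDC73 and shMYC tables the 3 medians were all −0.24. The 7 genes without a window in the tables used here (among them Asah1, Ctsh and Npc1) had medians of 0.018 and −0.35. A match is a sequence and not a measured binding site, and no match says only that these letters are not in this window.

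As a group the lysosome and autophagy genes were well expressed. Per kilobase of the longest transcript, their median mean level was 19.3, 22.8 and 23.5 CPM per kb in the shCTR9, shCDC73 and shMYC tables, against 9.15, 8.98 and 10.6 for all genes with a known length. In these 3 tables, 32 of 41, 34 of 41 and 33 of 42 lay above the median gene, and 10, 9 and 12 lay in the top 10%. In all, 39, 39 and 41 exceeded 10 CPM. Together the members took 0.604%, 0.613% and 0.695% of the CPM of the respective table.

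Among the hydrolases Ctsd, the aspartic protease cathepsin D, stood highest with 295, 329 and 351 CPM per kb in the shCTR9, shCDC73 and shMYC tables. Per median transcript length this order changed, since Ctsh (379 against 326 for Ctsd) was above it in shCTR9 and Ctsl (478 and 412 against 364 and 389) in shCDC73 and shMYC. In shMYC, Asah1 (445) was above both Ctsl and Ctsd. Other orders within a role likewise hold for the longest transcript. Ctsd shares 36.6% of its 50-base stretches with the annotated gene Gm49369 on the same strand, so its reads may have been divided between them. Ctsz, a carboxypeptidase of the cathepsin family, had 106, 125 and 116 CPM per kb, and Asah1, the acid ceramidase, 86.6, 62.0 and 142. At the low end were Ids, the iduronate sulfatase (6.61, 7.15 and 8.93), Naglu, which removes N-acetylglucosamine from heparan sulfate (5.06, 5.57 and 11.7), and Sgsh, the heparan sulfate sulfamidase (1.14, 1.11 and 2.58). The enzymes of this class thus spanned 1.11 to 351 CPM per kb. Card14 on the opposite strand overlaps 21.9% of the exonic bases of Sgsh, and the strand setting of the count is not given in the sources used here.

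Lamp1, the most abundant glycoprotein of the lysosomal membrane, had the highest level of all members with 383, 353 and 367 CPM per kb in the shCTR9, shCDC73 and shMYC tables. Psap, the precursor of the saposins that present sphingolipids to hydrolases, had 132, 136 and 168 CPM per kb. Npc2, which carries cholesterol within the lumen, had 114, 100.03 and 123. The lowest of this class were Mcoln1, the lysosomal calcium channel TRPML (10.5, 11.1 and 14.5), Cln3, a membrane protein mutated in Batten disease (6.53, 8.92 and 7.66), and Npc1, which takes cholesterol from Npc2 across the membrane (3.28, 4.71 and 7.66). Npc1 and Npc2 act in sequence, yet Npc2 was the higher of the pair in every table. For Cln3, 13.2% of the exonic bases overlap Apobr on the opposite strand.

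The 6 V-ATPase members lay between 11.6 and 108 CPM per kb. In the membrane-embedded part, Atp6v0e had 105, 82.4 and 108 CPM per kb in the shCTR9, shCDC73 and shMYC tables and Atp6v0d1 49.2, 40.6 and 79.2, and the accessory subunit Atp6ap1 had 67.2, 80.0 and 85.0. In the catalytic part that hydrolyses ATP, Atp6v1b2 had 40.8, 31.6 and 40.2 CPM per kb, Atp6v1a 19.3, 14.6 and 24.9, and Atp6v1h, a regulatory subunit, 11.8, 12.6 and 11.6. Both subunits of the membrane-embedded part were thus above those of the catalytic part, but per median transcript length Atp6v1b2 (164, 127 and 161) was above Atp6v0d1 (75.4, 62.1 and 121). Tfe3 and Tfeb were near the median gene, with 8.41, 8.80 and 9.36 CPM per kb for Tfe3 and 7.23, 6.54 and 9.20 for Tfeb.

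Of the autophagy genes, Sqstm1, the cargo receptor p62, was highest with 140, 177 and 169 CPM per kb in the shCTR9, shCDC73 and shMYC tables. Mrnip on the opposite strand overlaps 20.5% of its exonic bases. Map1lc3b and Gabarapl1 encode ubiquitin-like proteins that are joined to lipid on autophagosomes, and had 55.7, 62.1 and 34.2 CPM per kb and 19.9, 30.8 and 16.9. Becn1 and Uvrag, partners in a lipid kinase complex, had 18.2, 17.0 and 16.8 and 4.04, 4.04 and 4.85. For Becn1, 29.6% of the exonic bases overlap Cntd1 on the opposite strand. Wipi1 was lowest with 1.63, 1.67 and 5.62.

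**Figure D2:**
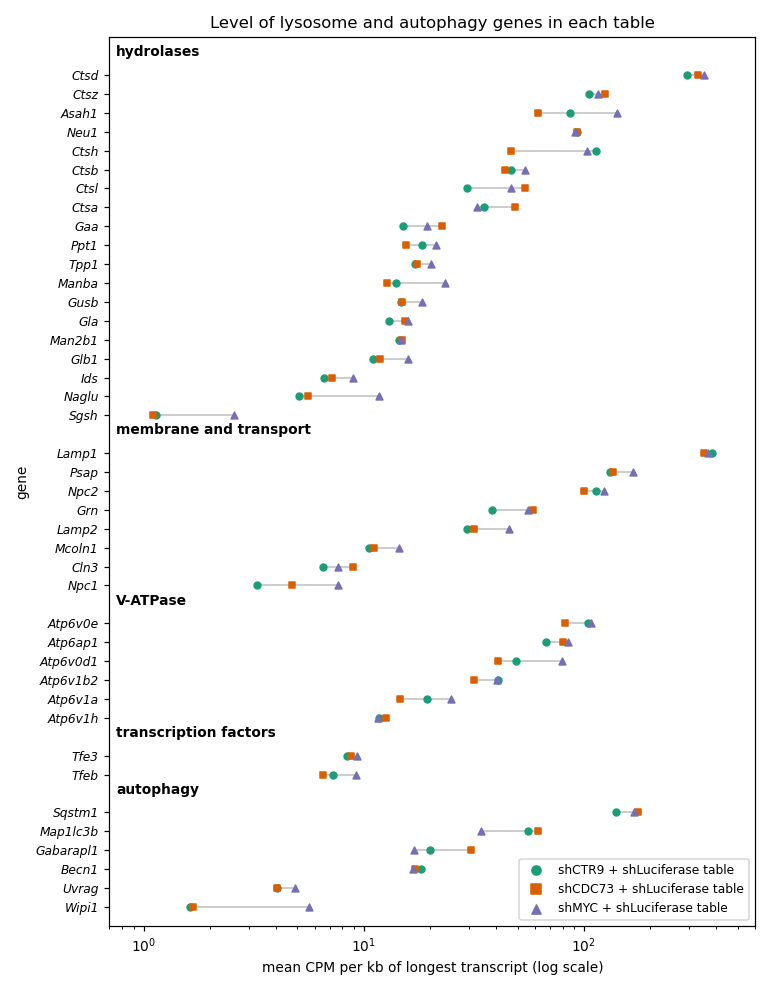
Mean level of each of the 41 genes in the 3 tables (x axis, CPM per kb of the longest transcript, log scale), by role and ordered within a role by the average of the tables. Circles, squares and triangles are the means over the libraries of shCTR9, shCDC73 or shMYC with shLuciferase, and the grey line joins the lowest to the highest. Lamp1 and Ctsd lie to the right in every table, and the lines of Wipi1, Npc1, Sgsh, Naglu, Asah1 and Ctsh are the longest.

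The shMYC table gave the highest mean for 25 of the 41 genes (61.0%), against 52.0% of all genes. A difference of more than 0.5 on the log2 scale between tables was used to count genes. Between the shCTR9 and shMYC tables, 1 member was higher in shCTR9 (5.21% of all genes were) and 11 were lower (19.0% of all genes), with 29 within 0.5 and a median difference of −0.28 against −0.12 over all genes. Between the shCDC73 and shMYC tables, 3 members were higher in shCDC73 (8.23% of all genes) and 10 were lower (22.6% of all genes), with a median of −0.30 against −0.15. The shares of lower members were thus 26.8% and 24.4%. In bulk RNA, fewer cells that express a gene and less RNA per cell cannot be told apart.

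These 2 comparisons depend on how the tables are scaled, because the median gene was lower in the shCTR9 and shCDC73 tables than in the shMYC table by a shift of −0.20 and −0.23 on the log2 scale. Relative to that shift, 6 members were lower and 1 higher in shCTR9 than in shMYC, and 8 lower and 3 higher in shCDC73 than in shMYC, with medians of −0.074 and −0.073. On this scale 10.2% of all genes were lower and 13.4% higher in shCTR9, and 11.4% lower and 18.5% higher in shCDC73, while 14.6% of the members were lower and 2.44% higher in shCTR9, and 19.5% lower and 7.32% higher in shCDC73. Over all genes, the share of higher among those past 0.5 went from 21.5% to 56.7% in the first comparison and from 26.7% to 61.9% in the second, and the median of all genes turned from −0.12 to 0.084 and from −0.15 to 0.075. Under either scaling, most members past 0.5 were lower than in shMYC, and members past 0.5 were the minority of all members. Over all genes, most of those past 0.5 were lower only with the scaling of the tables.

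The shCTR9 and shCDC73 tables, which name subunits of the same complex, lay closer together. Here 35 of 41 members were within 0.5, 1 was higher in shCTR9 (5.37% of all genes) and 5 were lower (6.28% of all genes), with a median of −0.046 against 0.0073 over all genes. The comparisons share the control libraries and, in pairs, a depletion, so they are given side by side and not as independent results.

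**Figure D3:**
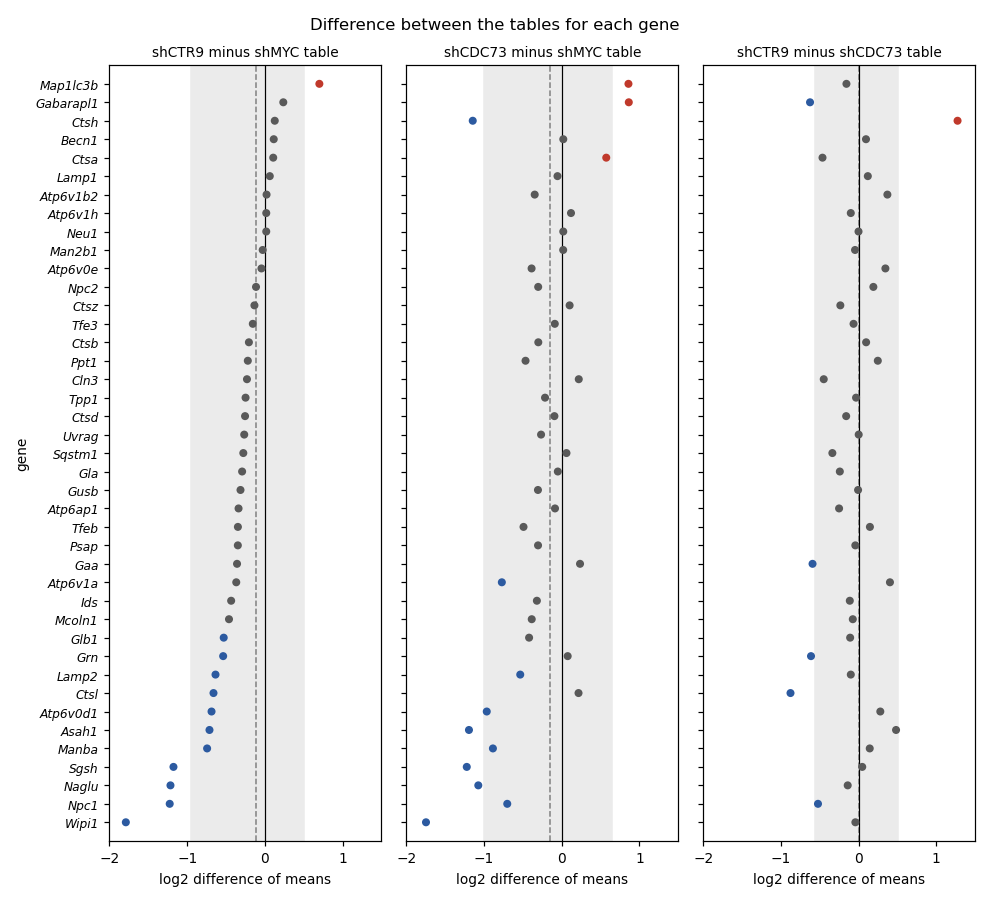
Difference of the mean log2 CPM between tables for each of the 41 genes (x axis, log2), in 3 panels, with genes ordered by the shCTR9 minus shMYC difference. Red points lie above 0.5 and blue points below −0.5, the grey band spans the 5th to 95th percentile of all genes and the dashed line is their median. Wipi1 lies furthest left in the first 2 panels, and Ctsh furthest right in the last.

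Of the 19 hydrolases, 6 (31.6%, against 19.0% of all genes) were lower in the shCTR9 than in the shMYC table, with a median of −0.29, and 5 (26.3%, against 22.6%) were lower in shCDC73, with a median of −0.30. Relative to the shift of the median gene these counts were 4 and 5, against 10.2% and 11.4% of all genes. The medians were then −0.089 and −0.073, against 0.084 and 0.075 over all genes. Sgsh had means of 4.97, 4.82 and 11.2 CPM in the shCTR9, shCDC73 and shMYC tables, which is −1.18 and −1.22 relative to shMYC on the log2 scale. Naglu had 12.9, 14.3 and 30.05 CPM, differences of −1.21 and −1.07. Both act on heparan sulfate, as do Ids (32.9, 35.6 and 44.4 CPM) and Gusb, the beta-glucuronidase (39.8, 40.01 and 49.5 CPM), which stayed within 0.5. Asah1 had 240, 172 and 393 CPM (−0.71 and −1.19), and Manba, the beta-mannosidase, 51.6, 46.7 and 86.4 CPM (−0.74 and −0.89). Glb1, the beta-galactosidase, was less far apart with 30.8, 33.2 and 44.5 CPM (−0.53 and −0.42).

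Cathepsins did not share an order among the tables. Ctsh, an aminopeptidase, had 310, 128 and 284 CPM in the shCTR9, shCDC73 and shMYC tables and was the only member above 0.5 in shCTR9 relative to shCDC73 (1.27). In Ctsl, a cysteine endopeptidase, the order was the opposite, with 182, 334 and 287 CPM and a difference of −0.88. Ctsa, a carboxypeptidase that also stabilises Neu1 and Glb1, had 129, 178 and 120 CPM, 0.57 higher in shCDC73 than in shMYC. Neurl2 and Pltp on the opposite strand overlap 22.3% of the exonic bases of Ctsa, and other genes overlap 28.2% of those of Ctsl. Ctsb (223, 208 and 257 CPM), Ctsd (627, 700.2 and 747 CPM) and Ctsz (153, 180 and 168 CPM) stayed within 0.5 in each comparison. The most even of all members was Neu1, the sialidase, with 336, 336 and 331 CPM.

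Of the 8 membrane and transport genes, 3 were lower in shCTR9 than in shMYC and 2 lower in shCDC73, with medians of −0.40 and −0.30 (37.5% and 25%, against 19.0% and 22.6% of all genes). Relative to the shift of the median gene these counts were 1 and 0, against 10.2% and 11.4% of all genes, and Lamp2 and Grn no longer passed 0.5. The medians were then −0.20 and −0.076, against 0.084 and 0.075 over all genes. Npc1 had 18.9, 27.1 and 44.1 CPM in the shCTR9, shCDC73 and shMYC tables, and was lower in shCTR9 than in shCDC73 as well (−0.52). Lamp2, which receives cargo for chaperone-mediated autophagy, had 106, 114 and 165 CPM (−0.64 and −0.53 relative to shMYC), while Lamp1 had 854, 787 and 818 CPM and stayed within 0.12 between any 2 tables. The 2 major membrane glycoproteins thus differed in how far their tables lay apart. Grn, the progranulin precursor of lysosomal granulins, was low in the shCTR9 table alone with 89.6, 137 and 130 CPM, a difference of −0.54 from shMYC and −0.61 from shCDC73. Gaa, the acid alpha-glucosidase that degrades glycogen, had a like order with 54.9, 82.8 and 70.3 CPM (−0.59 between shCTR9 and shCDC73).

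In the V-ATPase, Atp6v0d1 had 80.2, 66.1 and 129 CPM in the shCTR9, shCDC73 and shMYC tables (−0.69 and −0.97 relative to shMYC), and Atp6v1a 81.7, 61.8 and 105 CPM (−0.37 and −0.77). The other 4 subunits stayed within 0.5 in every comparison. The median over the 6 was −0.19 and −0.37 relative to shMYC, and 0.31 between shCTR9 and shCDC73. Relative to the shift of the median gene, the first of these turned to 0.012 and the second was −0.14, against 0.084 and 0.075 over all genes. The transcription factors were within 0.5 in every comparison, Tfeb with 16.9, 15.3 and 21.5 CPM and Tfe3 with 53.2, 55.7 and 59.2 CPM.

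Autophagy genes included both the lowest and the highest of the differences from the shMYC table. Wipi1 had 5.43, 5.59 and 18.8 CPM in the shCTR9, shCDC73 and shMYC tables, which is −1.79 and −1.75 on the log2 scale. Map1lc3b went the other way with 230, 257 and 142 CPM (0.70 and 0.86), and so did Gabarapl1 with 36.3, 56.0 and 30.8 CPM (0.24 and 0.86). Their relatives in the wider list described further on differed in order, with Gabarap at 129, 158 and 162 CPM and Gabarapl2 at 85.1, 74.3 and 93.6 CPM, both highest in the shMYC table, and Map1lc3a lowest in shCTR9 (8.72, 54.3 and 15.4 CPM). Other genes hold 9.20% of the 50-base stretches of Map1lc3b. Sqstm1 (374, 473 and 453 CPM), Becn1 (79.4, 74.4 and 73.3 CPM) and Uvrag (20.8, 20.8 and 25.0 CPM) stayed within 0.5.

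For 6 members (14.6%) the highest table exceeded the lowest by more than 2 times, against 9.34% of all genes, and for the same 6 the shMYC table did so, against 6.38%. If the tables hold the same shLuciferase libraries and each mean weights its 6 libraries equally, the control level can be at most 2 times the lowest table mean, and a mean above that needs depleted cells above the control. These limits rest on the means alone and carry no error. For Wipi1 (chr11:109573521-109611389, GRCm38) the control would be at most 10.9 CPM and the MYC-depleted cells at least 26.7 CPM, at least 2.46-fold higher. MYC-depleted cells would exceed the control at least 1.34-fold for Npc1, 1.33-fold for Sgsh (chr11:119343489-119355510), 1.32-fold for Naglu (chr11:101070090-101077672) and 1.29-fold for Asah1 (chr8:41340646-41397644). Ctsh (chr9:90054267-90076095) would be at most 256 CPM in the control, at least 363 CPM after CTR9 depletion (1.42-fold) and at least 311 CPM after MYC depletion (1.21-fold).

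Relative to the shift of the median gene, 4 of these 6 stayed above 2 times, with limits of 2.003-fold for Wipi1, 1.38-fold for Ctsh, 1.03-fold for Npc1 and 1.02-fold for Naglu, and Sgsh and Asah1 did not. On that scale Gabarapl1 and Map1lc3b passed in the other direction, with values of 1.13-fold and 1.12-fold for CDC73-depleted cells over the control. As deposited, the same values were 0.82-fold and 0.81-fold, which do not place these cells above the control. Limits on the shifted scale hold only if the shift is scaling alone, so that the control stays equal in all tables. This was not tested, and the shifts were taken over depleted and control libraries together. The share of all genes past 2 times was not computed on that scale, so these counts have no background. For the other members the means set no such limit. Limits of this kind can only place depleted cells above the control, so they cannot show a decrease.

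**Figure D4:**
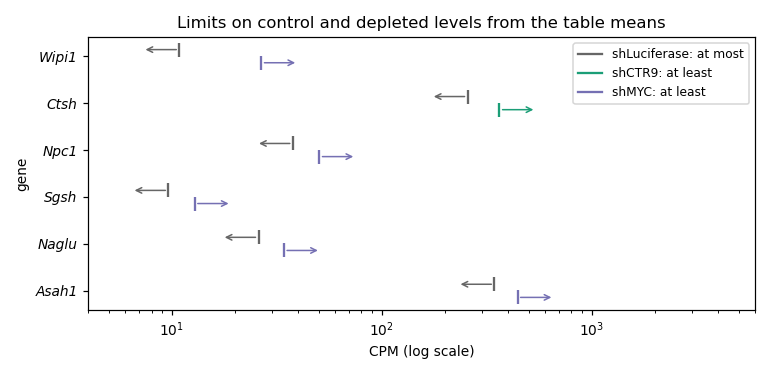
Limits that the table means set for the 6 genes whose highest table mean exceeded the lowest by more than 2 times (x axis, CPM, log scale). Grey bars with left arrows give the most the shLuciferase cells could have, and coloured bars with right arrows the least the depleted cells of the highest table could have, if the controls are common and weighted equally. Arrow lengths carry no value, and the gap is widest for Wipi1, from 10.9 to 26.7 CPM.

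Gene span, the distance from the start to the end of a gene, is of interest because PAF1c acts in elongation. The 41 genes spanned 6.05 to 254 kb with a median of 16.2 kb, against 20.97 kb for all genes. Across the members, Spearman's rho between span and difference was −0.27 for shCTR9 minus shMYC, −0.54 for shCDC73 minus shMYC and 0.49 for shCTR9 minus shCDC73 (n = 41 genes). Across all genes it was −0.26, −0.24 and 0.042 (n = 11298). Longer members were thus lower in shCDC73 relative to either other table, while Uvrag, the longest at 254 kb, stayed within 0.5. Genes share their libraries and are no replicates, so these are descriptions.

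A wider list of 100 further lysosome and autophagy genes, written from general knowledge, had 90 genes with a row in all 3 tables. It was written with earlier results of these data known, so it is no independent check of the members. Relative to shMYC, 28 of the 90 were lower and 4 higher in shCTR9 (median −0.30), and 33 were lower and 8 higher in shCDC73 (median −0.33). Between shCTR9 and shCDC73, 3 were higher and 7 lower (median 0.044), which is 3.33% and 7.78%, against 5.37% and 6.28% of all genes. The shMYC table was the highest for 63 of the 90 (70.0%), against 52.0% of all genes. As shares, 31.1% were lower and 4.44% higher in shCTR9 than in shMYC (19.0% and 5.21% of all genes), and 36.7% lower and 8.89% higher in shCDC73 (22.6% and 8.23%). Relative to the shift of the median gene, the counts from shMYC were 14 lower and 7 higher in shCTR9 (15.6% and 7.78%, against 10.2% and 13.4% of all genes) and 18 lower and 10 higher in shCDC73 (20% and 11.1%, against 11.4% and 18.5%). By role, 10 of 19 hydrolases were lower in shCTR9 than in shMYC (median −0.50) and 8 in shCDC73 (median −0.35). Of 10 V-ATPase subunits, 1 was lower in shCTR9 (median −0.32) and 6 in shCDC73 (median −0.59). Of 13 membrane and transport genes, 4 were lower in each, and of 38 autophagy genes 13 and 14. Relative to the shift of the median gene, the hydrolase counts were 6 and 5 and the V-ATPase counts 0 and 3. The membrane and transport counts were then 0 and 3, and the autophagy counts 8 and 7. Of the 10 genes of nutrient signalling at the lysosome, 0 passed 0.5 in shCTR9 relative to shMYC, while in shCDC73 Flcn was higher (0.57) and Lamtor1 lower (−0.71). Relative to the shift of the median gene, Flcn passed in shCTR9 as well (0.57) and Lamtor1 did not pass in shCDC73 (−0.48). The E-box lay in 16.7% of 84 windows of the wider list, against 10.2% of windows of all genes in the 3 tables. The 8-base motif lay in 1.19% (1 window), against 1.99%, so it was no more frequent there than among all genes. Both shares were below those of the members (35.0% and 20%).

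**Figure D5:**
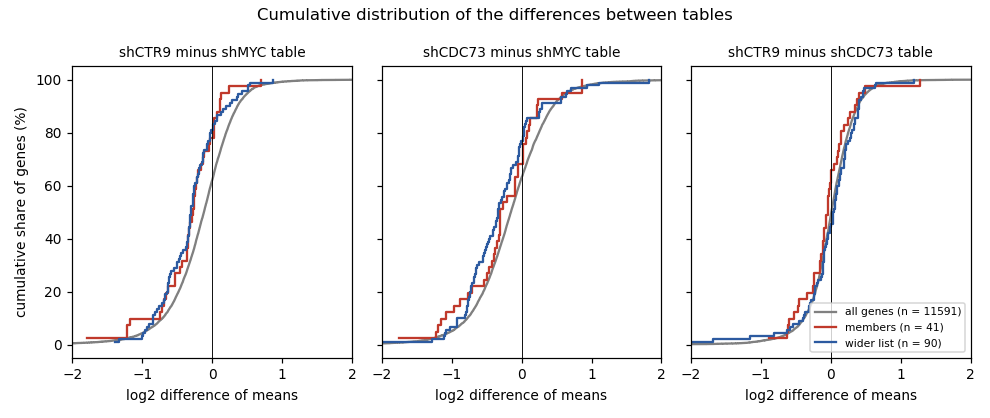
Cumulative share of genes (y axis, %) by the difference of mean log2 CPM between tables (x axis, log2, drawn from −2 to 2) for all 11591 genes (grey), the 41 members (red) and the 90 genes of the wider list (blue). In the first 2 panels the curves of both lists lie to the left of that of all genes over most of the range, with medians of −0.28 and −0.30 against −0.12, and −0.30 and −0.33 against −0.15.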

How the data were processed

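RNA-seq was done on poly(A) RNA of 12 libraries with a strand-specific kit. The authors mapped reads to mm10 with Bowtie2 2.3.4.1, which does not split reads over introns, brought all samples to the read number of the smallest, obtained gene counts from featureCounts, discarded genes under 5 reads and used edgeR to set each depletion against shLuciferase. The deposited tables hold, per gene, a mean log2 CPM over both groups, and the fold change, likelihood ratio and p-values of that comparison, which were not used. The deposited log2 values were turned into CPM with no pseudocount, divided by transcript length from GENCODE vM21 (known for 91.3 to 91.6% of genes) and subtracted between tables over the 11591 shared genes. Values per library were not analysed here, so there is no spread, interval or p-value. Read numbers per library are listed by the study and were not used here. Limits on control and depleted levels follow from the means as stated. Members and lists were chosen with earlier results of these data known. Named genes are the 3 highest and 3 lowest per kilobase in each role and the 8 with the largest difference between tables, and others were chosen after their values were seen. The alternatives were centring, a threshold of 0.25, a minimum of 10 CPM, differences in CPM and the median transcript length. The counts and limits were run on simulated levels without noise, with the same control in all tables and equal weights. That run checks the arithmetic and not whether these conditions hold in the data. Sequences are from RefSeq (GRCm38.p6), and all 40 windows were checked for strand. In 37 of the 40 the transcribed end opened an annotated transcript, against 0 if reversed, and the remaining windows matched neither way. Tables were handled with pandas 2.3.3 and numpy 2.4.6 in Python 3.11.15, correlations with scipy 1.17.1 and plots with matplotlib 3.10.9.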

Additional observations from a re-analysis of the deposited data

How the results depend on the processing

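Values per library were not analysed here, so no replicate could be left out. No paired analysis was possible because the tables hold means over libraries. Of 45 values recomputed under alternatives, 16 stayed near the main value, 29 moved and 0 changed direction. Counts and levels among them have no sign, so only the median differences could change direction. Outside these 45, medians of shCTR9 minus shMYC did turn on centring. The median of the V-ATPase members went from −0.19 to 0.012 and that of all genes from −0.12 to 0.084. With the median in place of the longest transcript length, the members' median level was 75.4, 77.7 and 79.0 CPM per kb in the shCTR9, shCDC73 and shMYC tables (22.0, 21.4 and 25.2 for all genes). For shCTR9 minus shMYC, shCDC73 minus shMYC and shCTR9 minus shCDC73, the members' median was −0.074, −0.073 and −0.071 after centring each table on its median gene, −0.27, −0.27 and −0.065 with at least 10 CPM (39 members), and −11.5, −9.83 and −1.63 as differences in CPM. After centring, 6 members were lower in shCTR9 than in shMYC. At a threshold of 0.25, 23 and 22 members were lower in shCTR9 and shCDC73 than in shMYC, and 6 were higher and 9 lower in shCTR9 than in shCDC73. For the wider list, the medians after centring were −0.10, −0.10 and 0.019, with 7 higher and 14 lower in shCTR9 than in shMYC and 18 lower in shCDC73. At 0.25 the wider list had 9 higher and 55 lower in shCTR9, 13 higher and 52 lower in shCDC73, and 21 higher and 15 lower in shCTR9 than in shCDC73. The share of all genes past 0.25 was not computed, so the counts at 0.25, for members and wider list alike, have no background. The spread between libraries was not analysed here, so no difference between tables can be set against sampling noise.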

Other observations

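In the wider list, the genes below were picked after their values were seen, for the size of their differences. Map1lc3a, a paralog of Map1lc3b, had 8.72, 54.3 and 15.4 CPM in the shCTR9, shCDC73 and shMYC tables, a log2 difference of −2.64 between shCTR9 and shCDC73. Ulk1, the kinase that starts autophagy, was likewise highest in shCDC73 with 28.03, 62.5 and 32.6 CPM. Gm2a, the activator protein of ganglioside breakdown, was highest in the shMYC table with 36.9, 23.9 and 96.5 CPM, as were Tecpr1, which takes part in autophagosome maturation (20.4, 25.3 and 51.4 CPM), and Rubcn, which restrains autophagosome maturation (35.6, 28.5 and 69.3 CPM). Pik3c3, the lipid kinase that binds Becn1, was lowest in the shMYC table with 45.7, 50.2 and 32.0 CPM. Acp5, an acid phosphatase, was highest in the shCTR9 table with 25.1, 11.1 and 13.8 CPM. These are means over depleted and control libraries, with no spread and no test.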
